A study of Mus musculus with 6 samples.

Results

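Disease-associated microglia genes are those that microglia switch on around amyloid plaques, dying neurons and damaged myelin, and several of them handle lipid or work in the lysosome. The set described here was defined by name as 10 such genes: Apoe, Lpl, Fabp5, Gpnmb, Cst7, Cd63, Cd9, Lgals3, Igf1 and Spp1. They were measured in BV-2, a mouse microglial line made by retroviral transformation with raf and myc oncogenes. The groups were 3 arrays of control cells, described as resting, and 3 arrays of cells given lipopolysaccharide (LPS, serotype O111:B4 of Escherichia coli) at 1 µg/mL for 24 h. Both groups were the same cell line with the same plating medium, and no harvest time is given for the controls in the sources used here. A member was read from array rows annotated with that gene alone, and the row with the highest mean over the 6 arrays stood for the gene. In this way 9 of the 10 members had a row among the 41345 rows of the table. The remaining member, Spp1 (osteopontin), had no row naming it alone and is not analysed here.

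In the brain, the shift to this gene programme is known to depend in large part on TREM2, a lipid-sensing surface receptor that signals through the adaptor TYROBP. Apolipoprotein E carries lipid between cells, lipoprotein lipase frees fatty acids from lipoproteins, and FABP5 carries fatty acids inside the cell. GPNMB, cystatin F (Cst7) and the tetraspanin CD63 work in endosomes and lysosomes, while osteopontin and insulin-like growth factor 1 act largely outside the cell. Galectin-3 (Lgals3) is a lectin that gathers on damaged lysosomes. LPS acts through Toll-like receptor 4 and drives an inflammatory programme that is generally treated as separate from this one.

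None of the 9 measured members changed detectably between control and LPS-treated cells. On the brightest row of each gene, the largest difference was in Apoe, which was 1.51-fold lower after LPS, followed by Lpl at 1.47-fold lower. A second, dimmer Lpl row was 2.56-fold lower, with a limma unadjusted p of 0.030 and adjusted p of 0.68. On their brightest rows, the 5 members Gpnmb, Lgals3, Fabp5, Cd9 and Cd63 had intervals that lay within a 2-fold change in either direction. A dimmer Fabp5 row (17404073) had an interval that reached beyond a 2-fold fall. In limma, a linear model with variances shared across all rows, 0 of the 9 brightest rows had an adjusted p under 0.05. Among these rows 1, that of Apoe, had an unadjusted p under 0.05. The same test called 0.193% of all rows, 80 of 41345, all of them higher after LPS. That direction depended on the arrays used: 14 rows were called lower after dropping control replicate 2, 6 after dropping LPS replicate 3, and 67 of 219 after dropping both. At an unadjusted p under 0.05, 1.4% of all rows were lower and 4.98% higher.

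Values are on the log2 scale, where 1 unit is a 2-fold difference, and levels of different genes are not compared because each row has its own probes. All 9 members lay above 3.08, the 95th percentile of 1443 rows for smell, pheromone and taste receptors that served as a guide to background. The arrays had medians between 2.88 and 2.97. Control replicate 2 stood apart: over the 11424 rows of 1 gene above background its median deviation from the other controls was -0.36, and its r with them was 0.959 and 0.960 against 0.982 between control replicates 1 and 3. LPS replicate 3 deviated from the other LPS arrays by a median of 0.08 over the same rows. Over all rows its r with LPS replicates 1 and 2 was 0.966 and 0.973, against 0.979 between LPS replicates 1 and 2. Macrophage and microglia markers were above background for 12 of 12 genes. Of these, Cx3cr1 (means of 3.75 in control and 3.64 in LPS arrays) and Aif1 (3.91 and 4.03) were near the guide to background. Of other cell types, 0 of 8 astrocyte, 1 of 9 oligodendrocyte, 1 of 9 neuron, 1 of 10 lymphocyte or granulocyte and 3 of 10 fibroblast or endothelial markers were above it, the last with Kdr at 8.99. Separate cultures are not stated for the replicates, so each p-value reflects only array-to-array spread, part of which can be technical.

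**Figure D1:**
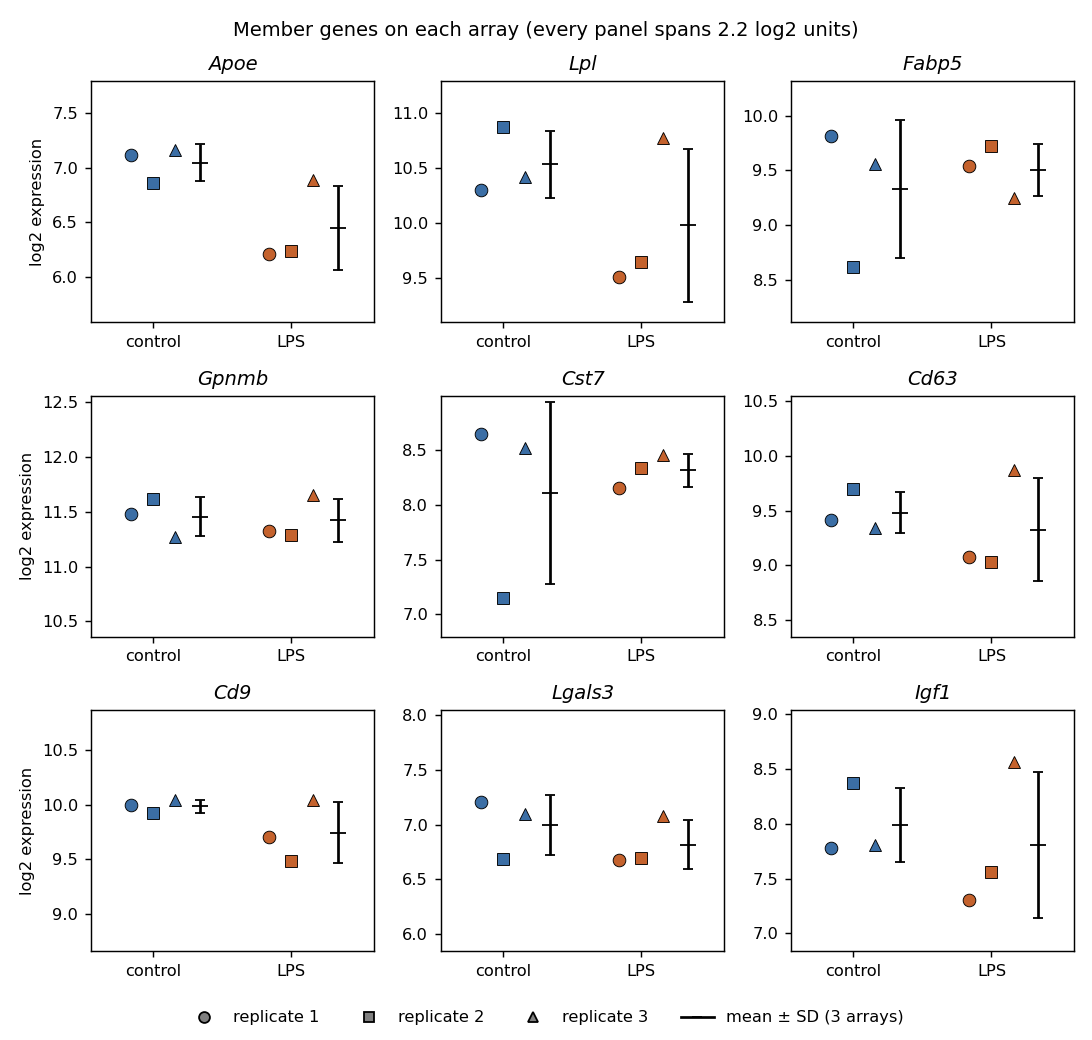
Log2 expression of each measured member (vertical axis, one panel per gene, every panel spanning the same number of log2 units) on the control and LPS arrays (horizontal axis), with symbols for the replicates and a bar for the mean ± SD of 3 arrays. The groups overlap in all 9 genes, LPS replicate 3 lies above the other LPS arrays in 8 of them, and control replicate 2 is the lowest point in Cst7 and Fabp5.

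Among the lipid genes, Apoe codes for the main lipid carrier made by brain cells. Its values (transcript cluster 17487381) were 7.12, 6.85 and 7.16 in control replicates 1 to 3 and 6.22, 6.24 and 6.89 in LPS replicates 1 to 3. LPS replicates 1 and 2 lay below every control, whereas LPS replicate 3 lay just above control replicate 2, so the groups overlapped. The means were 7.05 ± 0.17 and 6.45 ± 0.38 (SD, n = 3), a log2 difference of -0.60 (SE 0.22, limma adjusted p = 0.70, 95% interval -1.12 to -0.07). This interval is not adjusted for the number of rows tested. Without LPS replicate 3 the difference was -0.82 (limma adjusted p = 0.27).

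Lpl, the secreted lipase of lipoprotein triglycerides, had 10.30, 10.88 and 10.42 in the controls against 9.51, 9.65 and 10.77 in the LPS arrays (transcript cluster 17501633). Again LPS replicates 1 and 2 were below all controls, while LPS replicate 3 was higher than control replicates 1 and 3. The log2 difference was -0.56 (SE 0.36, limma adjusted p = 0.96, interval -1.41 to 0.30), and -0.96 (adjusted p = 0.32) without LPS replicate 3. A second row named for Lpl (17509775) had 7.40, 8.16 and 7.56 in the controls against 6.01, 5.57 and 7.48 in the LPS arrays. The log2 difference of this row was -1.36 (SE 0.49, limma adjusted p = 0.68, unadjusted p = 0.030, interval -2.53 to -0.18). It had the same direction as the brighter row and was larger, with LPS replicate 3 again close to the controls.

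Fabp5, a cytoplasmic fatty acid carrier, showed the opposite arrangement. Its brightest row (17548238) gave 9.81, 8.62 and 9.56 in the controls against 9.54, 9.72 and 9.25 in the LPS arrays. The lowest of the 6 values was control replicate 2, and LPS replicate 3 was the lowest of its group, the only member for which this was so. The log2 difference was 0.17 (SE 0.32, limma adjusted p = 1.00, interval -0.60 to 0.94), and -0.19 without control replicate 2. The gene had 4 rows, and their log2 differences were 0.17, 0.16, -0.07 and -0.63, so the rows disagreed in sign; near-identical copies of the gene could share its probes, which was not tested.

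Of the proteins of endosomes, lysosomes and the cell membrane, Gpnmb varied least between groups. This transmembrane glycoprotein of lysosomes and melanosomes had 11.48, 11.62 and 11.27 in the controls against 11.33, 11.29 and 11.65 in the LPS arrays (17458439). The highest and the lowest of the 6 values, LPS replicate 3 and control replicate 3, were only a fraction of a log2 unit apart. The log2 difference was -0.03 (SE 0.17, limma adjusted p = 1.00), with an interval from 0.74-fold to 1.29-fold of control.

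Cst7, whose product cystatin F inhibits lysosomal cathepsins, had 8.64, 7.15 and 8.52 in the controls against 8.15, 8.33 and 8.46 in the LPS arrays (17377464). The LPS values were close together and lay below control replicates 1 and 3, while control replicate 2 lay far below all other arrays. The sign of the comparison turned without that array: the log2 difference was 0.21 with it (SE 0.39, limma adjusted p = 1.00) and -0.27 without it (limma adjusted p = 0.75). Its interval, from 0.60-fold to 2.22-fold of control, was the widest upwards of the 9.

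The tetraspanin CD63 is a standard marker of late endosomes, lysosomes and exosomes. Its gene had 9.41, 9.70 and 9.34 in the controls against 9.08, 9.03 and 9.87 in the LPS arrays (17238594). LPS replicate 3 was the highest of all 6 arrays and the other LPS arrays were the lowest. LPS minus control was -0.16 (SE 0.26, limma adjusted p = 1.00, interval -0.77 to 0.45). Cd9, a tetraspanin of the plasma membrane, had 9.998, 9.92 and 10.04 in the controls, the tightest controls of the 9 members with an SD of 0.06, and 9.71, 9.48 and 10.04 in the LPS arrays (17471127). LPS replicates 1 and 2 were below every control, and LPS replicate 3 equalled the highest control to the second decimal. On average the LPS arrays differed by -0.24 (SE 0.18, limma adjusted p = 0.98). A second Cd9 row (17463201) was below background on the mean of the arrays and gave -0.08.

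Of the remaining measured members, Lgals3 codes for galectin-3, a lectin that binds galactosides and gathers on damaged lysosomes. It had 7.21, 6.69 and 7.10 in the controls against 6.68, 6.70 and 7.08 in the LPS arrays (17299329). Control replicate 2 fell beside LPS replicates 1 and 2, and LPS replicate 3 beside the other controls. The log2 difference was -0.18 (SE 0.20, limma adjusted p = 1.00, interval -0.65 to 0.30), and -0.33 without control replicate 2. Igf1, the insulin-like growth factor that microglia make in development and around myelin damage, had 7.78, 8.38 and 7.81 in the controls against 7.31, 7.56 and 8.57 in the LPS arrays (17236288). LPS replicate 3 and control replicate 2 were the highest arrays in that order, and the other LPS arrays were the lowest. For Igf1 the log2 difference was -0.18 (SE 0.35, limma adjusted p = 1.00, interval -1.02 to 0.66), and -0.56 without LPS replicate 3.

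**Figure D2:**
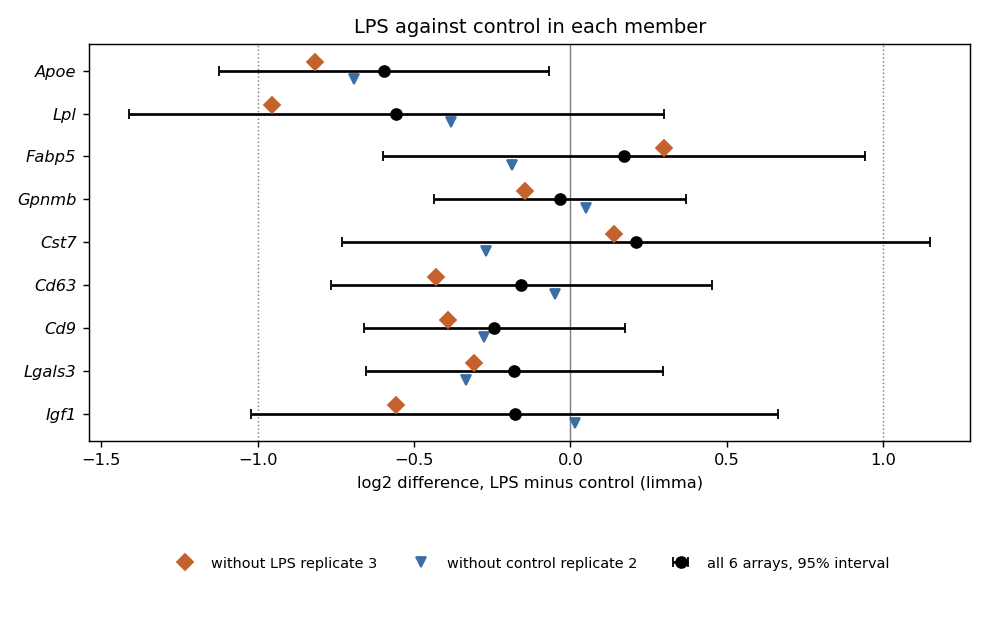
Log2 difference of LPS minus control (horizontal axis) for each measured member (vertical axis), with the limma estimate from 6 arrays and its 95% interval as black points and bars, and the estimates without LPS replicate 3 and without control replicate 2 as coloured symbols; dotted lines mark a 2-fold change. All points of Apoe and Lpl lie below 0, and those of Fabp5, Gpnmb, Cst7 and Igf1 lie on both sides of it.

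Over the 9 members, 7 log2 differences were below 0 and 2 above, with a median of -0.18 and a range of -0.60 to 0.21. The median over all rows was 0.03, and over the rows of 1 gene above background it was 0.11. Quantile normalization moved these medians to -0.35 for the members and -0.03 for the rows of 1 gene above background, and the members again split into 7 below and 2 above 0. With LPS replicate 3 left out the median of the members was -0.39, and with LPS replicate 1 left out it was -0.03. No member had all its LPS values above or below all its control values, where 3.48% of all rows lay wholly below and 7.74% wholly above, and of the rows of 1 gene above background 2.19% and 13.9%.

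In each of the 9 members the range of values within at least 1 group was larger than the difference between the group means. LPS replicate 3 was the highest LPS array in 8 of the 9 members, against 45.5% of rows of 1 gene above background. It exceeded the mean of the other LPS arrays by 1.20 log2 units in Lpl, 1.13 in Igf1, 0.81 in Cd63 and 0.66 in Apoe, and the same deviation was -0.38 in Fabp5. Among the macrophage and microglia markers, LPS replicate 3 was the highest LPS array for 9 of 12 genes and lay above the mean of the other LPS arrays by a median of 0.56, and the summed linear signal of the 12 markers ran from 5680 to 8832 in the LPS arrays and from 6430 to 7052 in the controls. Their part in the members' values was not tested. In bulk RNA, fewer cells that express a gene and less RNA per cell cannot be told apart.

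Control replicate 2 divided the members. It was the lowest control for Apoe, Cst7, Lgals3, Fabp5 and Cd9, as it was for 70.8% of rows of 1 gene above background. It was the highest control for the other 4, Lpl, Gpnmb, Cd63 and Igf1, as it was for 16.2% of such rows. These 4 were also highest in LPS replicate 3 within their group, a combination found in 11% of such rows. Apoe, Cst7, Lgals3 and Cd9, another 4, were lowest in control replicate 2 and highest in LPS replicate 3 within their groups, as were 27.1% of such rows. Its deviation from the other controls ran from 0.58 in Igf1 and 0.52 in Lpl to -1.07 in Fabp5 and -1.44 in Cst7.

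**Figure D3:**
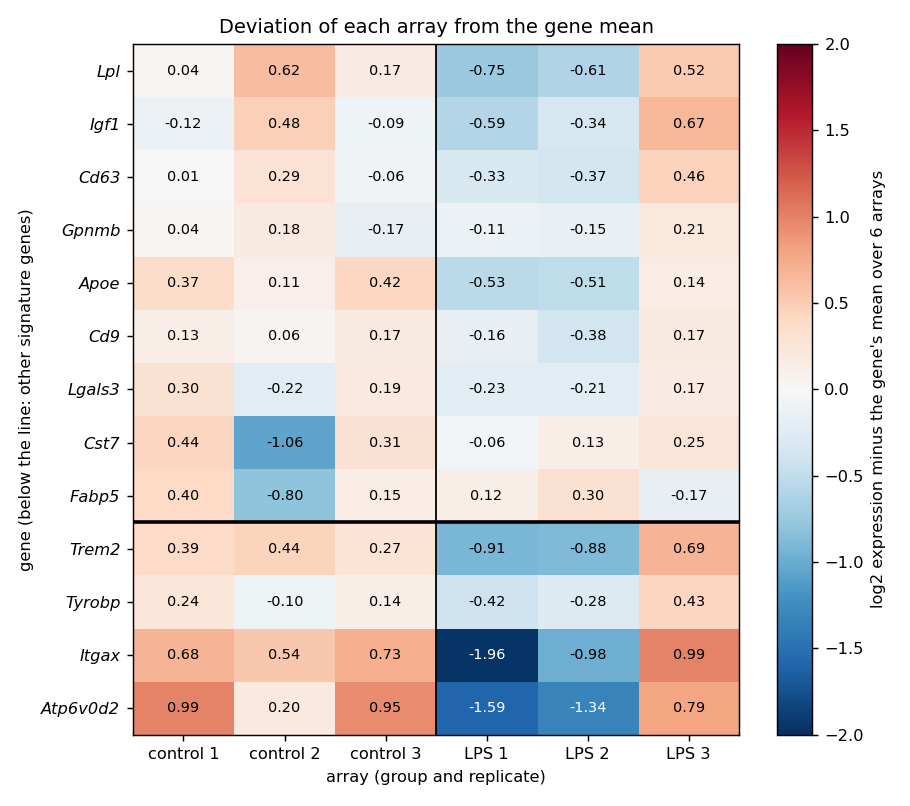
Deviation of each array (columns) from the gene's mean over 6 arrays in log2 units (colour and printed value) for the 9 measured members and, below the line, 4 further genes of the signature, chosen after their values were seen. Lpl, Igf1, Cd63 and Gpnmb are high in control replicate 2 and LPS replicate 3, and Cst7 and Fabp5 are low in control replicate 2.

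Lpl, Gpnmb, Cd63 and Igf1 were highest in control replicate 2 and in LPS replicate 3 within their groups. Promoters are shown for 3 of these 4 genes, as the RefSeq promoter table had no entry for Lpl or Fabp5. Each window runs from 250 bases before to 50 bases after the annotated start (RefSeq, GRCm38.p6), 5′ to 3′ along the gene. Capitals mark the only match to a searched motif.
Gpnmb, chr6:49036268-49036567, plus strand: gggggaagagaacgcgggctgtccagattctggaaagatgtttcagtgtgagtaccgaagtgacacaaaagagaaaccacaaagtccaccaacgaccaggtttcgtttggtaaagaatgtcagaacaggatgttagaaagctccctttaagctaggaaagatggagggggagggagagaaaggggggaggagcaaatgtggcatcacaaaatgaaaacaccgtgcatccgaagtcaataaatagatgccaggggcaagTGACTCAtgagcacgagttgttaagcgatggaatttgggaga
Cd63, chr10:128909095-128909394, plus strand: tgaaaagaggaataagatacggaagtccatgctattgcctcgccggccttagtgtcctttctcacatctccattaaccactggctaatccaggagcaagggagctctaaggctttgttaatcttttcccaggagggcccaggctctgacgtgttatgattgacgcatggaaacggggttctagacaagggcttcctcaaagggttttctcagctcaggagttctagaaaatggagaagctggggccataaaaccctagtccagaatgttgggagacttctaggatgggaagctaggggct
Igf1, chr10:87860861-87861160, plus strand: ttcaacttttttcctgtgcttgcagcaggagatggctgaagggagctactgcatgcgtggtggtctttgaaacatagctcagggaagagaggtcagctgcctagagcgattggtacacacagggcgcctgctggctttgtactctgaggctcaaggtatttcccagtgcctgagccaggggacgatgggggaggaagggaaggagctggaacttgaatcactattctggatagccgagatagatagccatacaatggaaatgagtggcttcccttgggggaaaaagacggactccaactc
The 5 motifs, searched on both strands, were CACGTG (the E-box core, which MiT/TFE factors bind), TCACGTGA (a longer form that contains it), TGACTCA (AP-1), GAGGAAGT (PU.1) and GGACTTTCC (NF-kappaB). Of the 9 windows of the 7 measured members in the table, 1 held a match, TGACTCA at base 259 of the Gpnmb window, 9 bases into the annotated transcript. Over all 32851 windows, 7.15% held CACGTG, 0.974% TCACGTGA, 5.2% TGACTCA, 3.2% GAGGAAGT and 0.344% GGACTTTCC. A match describes letters in this window only.

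The rest of the signature was examined through 29 measured genes beyond the members. None of these 29 passed over all rows, and 4 were higher and 2 lower at an unadjusted p under 0.05 in limma (4.98% and 1.4% of all rows). The median log2 difference was 0.08, and 0.0067 over the 27 genes above background. Lowest in p was Cd52, a small glycoprotein of leukocyte surfaces, with 7.86, 7.04 and 7.53 in the controls against 8.60, 8.61 and 9.01 in the LPS arrays. Every LPS value of Cd52 was above every control, for a log2 difference of 1.26 (SE 0.25, limma adjusted p = 0.23). Cox6a2, a subunit of cytochrome c oxidase, had a log2 difference of 0.89 (SE 0.23, limma adjusted p = 0.40). Ccl6, a chemokine, had -1.03 (SE 0.33, limma adjusted p = 0.58).

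The receptor Trem2, its adaptor Tyrobp, the integrin Itgax (CD11c) and the proton pump subunit Atp6v0d2 were singled out after their values were seen. Trem2 had 8.45, 8.50 and 8.34 in the controls against 7.16, 7.19 and 8.75 in the LPS arrays, a log2 difference of -0.73 (SE 0.42, limma adjusted p = 0.93). Like Cd63, it was lowest in LPS replicates 1 and 2, and its highest array was LPS replicate 3. Atp6v0d2 had 6.26, 6.51 and 8.64 in the LPS arrays against 8.05 to 8.85 in the controls (-1.43, limma adjusted p = 0.82), and Itgax had 4.12, 5.10 and 7.07 against 6.62 to 6.81 (-1.30, limma adjusted p = 0.89). LPS replicate 3 stood above the mean of the other LPS arrays by 1.58 in Trem2, 0.77 in Tyrobp, 2.25 in Atp6v0d2 and 2.46 in Itgax. Over all 29 genes of the list the median of this deviation was 0.61, LPS replicate 3 was the highest LPS array in 24, and the deviation was below 0 in 4, among them Axl (-0.24) and Cox6a2 (-0.23).

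Genes of lipid uptake, storage and efflux numbered 26 with a row, of which 0 passed, and the median log2 difference was 0.04. At an unadjusted p under 0.05 in limma, 1 was higher and 1 lower (4.98% and 1.4% of all rows). Above background were 19 of the 26, with a median of 0.23, against 0.11 over all rows of 1 gene above background. Abca1, the pump that loads cholesterol and phospholipid onto apolipoproteins, had 6.75, 6.64 and 6.87 in the controls against 6.96, 7.41 and 7.59 in the LPS arrays. The Abca1 groups did not overlap, yet the log2 difference of 0.56 (SE 0.19) did not pass (limma adjusted p = 0.64). The scavenger receptor Msr1 had a log2 difference of 1.03 (SE 0.46, limma adjusted p = 0.83), with control replicate 2 at 6.83, as high as LPS replicate 2. Pltp, the phospholipid transfer protein, had -0.44 (SE 0.18, limma adjusted p = 0.78) at levels below the guide to background.

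Of 14 genes coding for MiT/TFE transcription factors, which switch on lysosome genes, and for proteins in lysosomes or linked to them, 0 passed. At an unadjusted p under 0.05 in limma, 3 were higher and 0 lower, where 4.98% and 1.4% of all rows were. All 14 were above background, and their median was 0.11, as was that of all rows of 1 gene above background. The autophagy receptor Sqstm1 (p62) had 9.08, 8.50 and 9.23 in the controls against 10.14, 10.33 and 10.87 in the LPS arrays, a log2 difference of 1.51 (SE 0.27, limma adjusted p = 0.18). Tfec, a MiT/TFE factor, had 5.51, 5.34 and 5.69 against 6.32, 6.49 and 6.97, a log2 difference of 1.08 (SE 0.21, limma adjusted p = 0.23). The other MiT/TFE factors, Mitf, Tfe3 and Tfeb, had -0.04, 0.12 and -0.03. The sialidase Neu1 had 0.65 (SE 0.23, limma adjusted p = 0.66). In Sqstm1, Tfec and Neu1 the LPS values lay wholly above the controls, and none passed over all rows. The same held for 7.74% of all rows and 13.9% of rows of 1 gene above background.

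Receptors and partners of the member proteins (20 genes) had a median of 0.01, with 0 passing. At an unadjusted p under 0.05 in limma, 3 were higher and 0 lower, where 4.98% and 1.4% of all rows were. Above background were 13 of the 20, with a median of 0.04. Itga5, a fibronectin receptor subunit, had 6.40, 6.68 and 6.43 in the controls against 7.69, 8.04 and 8.98 in the LPS arrays. This was the largest difference of the list, at 1.74 log2 units (SE 0.33, limma adjusted p = 0.22), and the groups did not overlap. The heparan sulfate proteoglycan Sdc4 and the insulin receptor Insr had 0.52 (SE 0.17, limma adjusted p = 0.59) and 0.48 (SE 0.20, limma adjusted p = 0.77). Family relatives of the members (26 genes: cystatins, galectins, fatty acid binding proteins, tetraspanins and others) had a median of 0.00450. Of these 0 passed, and 1 in each direction had an unadjusted p under 0.05 in limma. Above background were 16 of the 26, with a median of 0.03. Galectin-9 (Lgals9) had 1.30 (SE 0.51, limma adjusted p = 0.73). Its control replicate 2 was 7.07 against 8.46 and 8.71, and its LPS replicate 3 was 10.17 against 8.95 and 9.02. Of the other galectins above background, Lgals1, Lgals2 and Lgals8 had -0.0017, -0.23 and 0.56, and the member Lgals3 had -0.18. The tetraspanin Tspan4 had -0.43 (SE 0.16, limma adjusted p = 0.71), and the endothelial lipase Lipg 0.98 (SE 0.55, limma adjusted p = 0.91).

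Homeostatic microglia genes, which fall in tissue as the disease-associated set rises, had a median of -0.12 over 18 genes. Above background were 11 of the 18, with a median of -0.25. None passed, and at an unadjusted p under 0.05 in limma 0 were higher and 5 lower, where 1.4% of all rows were lower. Of these 5, Gpr34 lay below the guide to background of 3.08, and Fcrls was near it, with means of 3.44 and 2.79 in control and LPS arrays. Wholly below the controls were 5, where 3.48% of all rows were. Mef2c, a transcription factor, had 8.36, 8.02 and 8.39 in the controls against 7.16, 7.25 and 7.87 in the LPS arrays (-0.83, SE 0.23, limma adjusted p = 0.47). The purinergic receptors P2ry12 and P2ry13 had -0.77 (limma adjusted p = 0.65) and -0.50 (limma adjusted p = 0.64). Both were near background, with control means of 4.04 and 3.66 and LPS means of 3.27 and 3.17. The median of this list was below 0, as was the median of the members, and a difference between the lists was not tested.

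**Figure D4:**
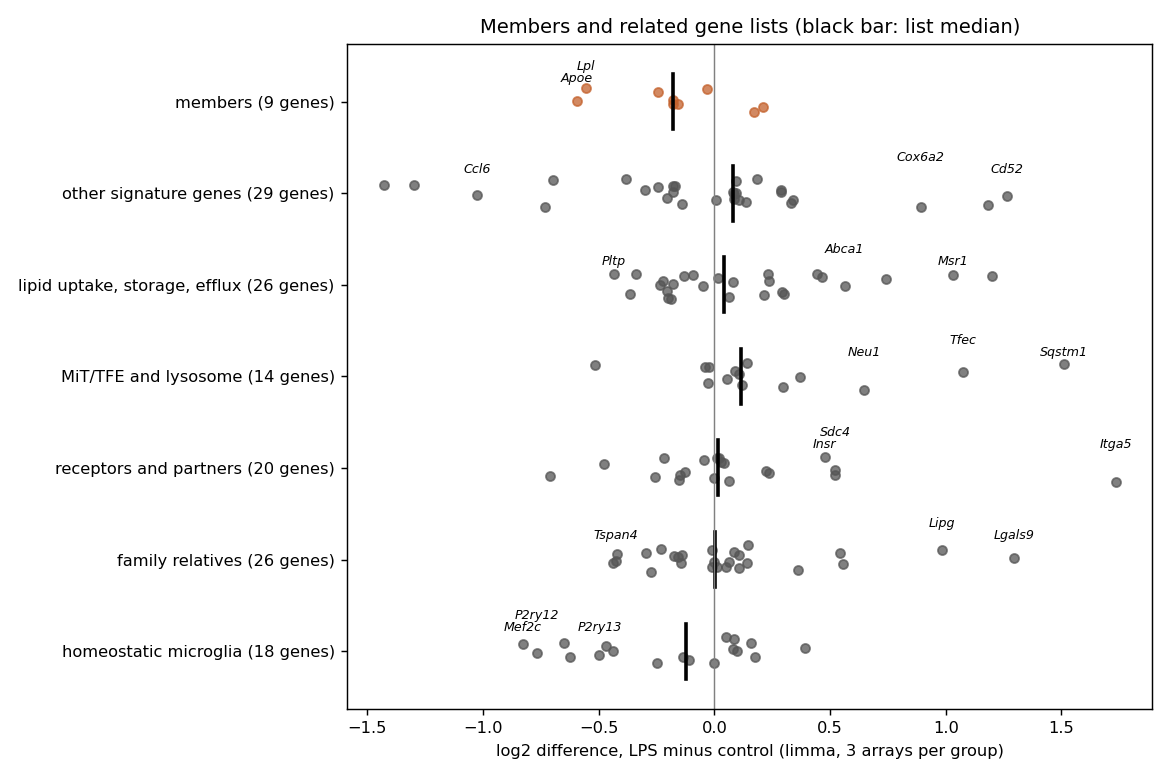
Log2 difference of LPS minus control from limma (horizontal axis) for the 9 members and each of 6 related gene lists (vertical axis), with 1 point per gene, a black bar at the list median and names for the genes given in the text. The medians run from -0.18 for the members to 0.11 for MiT/TFE and lysosome genes, and no point passed the test over all rows.

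Rows whose profile over the 6 arrays was closest to that of Apoe and Lpl were sought among the rows of 1 gene above background. For Apoe these were Nrm (Pearson r 0.996), St8sia4 (0.994) and Gpr183 (0.993). Gpr183, a receptor for oxysterols, had 7.36, 6.61 and 7.34 in the controls against 4.50, 4.52 and 6.29 in the LPS arrays, wholly below the controls (-1.998, SE 0.51, limma adjusted p = 0.40). For Lpl they were Tmem250-ps (0.999), Fbxw9 (0.994) and the purinergic receptor P2ry1 (0.992), with P2ry1 at 3.90, 3.90 and 6.02 in the LPS arrays against 5.38 to 6.11 in the controls. These r values were the highest among 11424 rows over only 6 arrays in 2 groups, and they describe likeness only.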

How the data were processed

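Total RNA of BV-2 cells was labelled with a whole-transcript kit and hybridised to 1 array per sample, per the labels' protocols. The deposited values were log2 expression per transcript cluster, made by the authors; the submitters' processing notes name Affymetrix Expression Console, and its version, background correction and normalization are not given in the sources used here. Log2 was inferred from the range of values. Because these steps are unknown, differences of dim genes may be biased. Genes were named from the platform annotation with RefSeq synonyms, and 23521 of 41345 rows had 1 symbol.

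LPS was compared with control by limma 3.58.1 in R 4.3.3 (lmFit, eBayes, no filter) over all rows, with Benjamini-Hochberg adjustment and a threshold of 0.05. Intervals are moderated and unadjusted. The code was tested on simulated data. Members and lists were chosen with earlier results of these data known. Named genes were all members, the 3 of each list that passed or, failing that, had the lowest p, and the 3 rows most correlated with the 2 members of lowest p; Trem2, Tyrobp, Itgax and Atp6v0d2 were added after their values were seen. Alternatives were other scalings, row filters, variance models, a replicate block and leaving out arrays. With 3 arrays per group, their number sets the precision.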

Additional observations from a re-analysis of the deposited data

How the results depend on the processing

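No member passed in any of the 15 alternative settings, and the lowest adjusted p of a member was 0.11, for Apoe after removing control replicate 2 together with LPS replicate 3, which was decided after seeing the data. Differences were below 0 in every setting for Apoe (-0.91 to -0.48) and Lpl (-0.96 to -0.32). The same held for Lgals3 (-0.47 to -0.07), Cd9 (-0.42 to -0.11) and Cd63 (-0.43 to -0.0099), the last near 0 without LPS replicate 2. Row filters, the replicate block and variance models other than array weights leave each log2 difference unchanged. Those settings could not turn a sign, so only the others bear on it. No gene of the related lists passed in any setting but the one without control replicate 2 and LPS replicate 3. There 1 gene, Atp6v0d2, was called lower, as were 67 of the 219 rows called. The high value of Atp6v0d2 on LPS replicate 3 had been seen before that array was dropped, so this is no support for a difference. Signs turned in 4 members, and the cause was not tested: leaving out 1 array at a time gave -0.15 to 0.049 for Gpnmb, -0.27 to 0.48 for Cst7, -0.19 to 0.41 for Fabp5 and -0.56 to 0.073 for Igf1. Cst7 was -0.084 with array weights, and with both of these arrays removed Cst7 was -0.34 and Fabp5 -0.059. The other Fabp5 rows of opposite sign gave -0.072 and -0.63. The number of rows called, 80, was 15 to 82 with 1 array left out (lowest for the first control array; 17 and 27 when LPS replicate 2 or 1 was dropped, 22 for control replicate 3), 132 with array weights, 7 with the replicate block and 219 with both of these arrays removed. The labels do not state whether the replicate numbers pair the arrays. Correlations of deviations from the group means were 0.15, -0.31 and -0.31 for replicates 1 to 3. They cannot decide this, because deviations within a group of 3 arrays are not independent.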
